A study of Bos grunniens and Bos grunniens x Bos taurus with 6 samples.

Results

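INHA-bearing cells of the sexually mature testis were 232 cells, 149 from a cattle-yak library and 83 from the library of a yak of 4 years. They were 2.69% of the 8615 filtered cells of these 2 libraries, and the whole series held 31071 filtered cells in 40564 barcodes. A cell was taken when it had at least 300 genes, at most 20% mitochondrial UMIs (unique molecular identifiers, each counting 1 captured RNA molecule) and at least 1 UMI of INHA. It also had to have no UMI of 9 genes that mark other classes: DCN, COL1A2, PECAM1, CDH5, PTPRC, CD3D, UCHL1, SYCP1 and RGS5. INHA and those 9 genes therefore describe the choice and are not findings. Because INHA itself made the groups, every value of INHA-bearing against INHA-negative cells is a description with no test.

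The series measured RNA in single testis cells with 10x Genomics libraries. The mature groups were 1 cattle-yak, a cross between cattle and yak known for male sterility, and 1 yak (Bos grunniens) of 4 years, both labelled as past sexual maturity. The younger groups were yaks of 6 months, labelled prepubertal (replicates 1 and 2), and yaks of 18 months, labelled adolescent (replicates 3 and 4). No age is given for the cattle-yak, and all tissue had been frozen, thawed and digested to single cells before loading. Whether the libraries of 1 age came from different animals is not stated, so a p-value covers only the variation among libraries, which may be technical. Depth was 9575446 to 24762829 UMIs per library, and the INHA-bearing cells held 258774 UMIs in the cattle-yak and 154281 at 4 years. With 1 library each, cattle-yak and the yak of 4 years were compared without a test, and all intervals are 95% intervals that cover counting error only.

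Sertoli cells line the seminiferous tubule, nourish the germ cells and form the blood-testis barrier. INHA encodes the alpha subunit of inhibin, the hormone by which Sertoli cells restrain the release of follicle-stimulating hormone. SOX9 is the transcription factor that sets up Sertoli fate, and CST3 encodes cystatin C, a secreted protease inhibitor that many cell types make.

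INHA-bearing cells were shallow, and most of them were chosen by a single UMI. Their median depth was 1246 UMIs and 510 genes in the cattle-yak, and 1044 UMIs and 548 genes at 4 years. The same rule found 2094 and 1832 cells at 6 months and 199 and 555 cells at 18 months. Exactly 1 INHA UMI was present in 79 of the 149 cattle-yak cells and in 58 of the 83 cells of the yak of 4 years. At least 3 were present in 43 cattle-yak cells and in 6 cells at 4 years, with highest counts of 18 in the cattle-yak and 4 at 4 years. Mitochondrial UMIs had a median of 7.49% in the cattle-yak cells and 5.32% in those of 4 years. The mature libraries shared 13 cell barcodes, of which 0 were INHA-bearing in both.

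INHA was more frequent among cells free of the 9 excluded genes than among leukocytes of the same library. Of the cells without those genes, 11.0% (9.39–12.8) had INHA in the cattle-yak and 3.41% (2.73–4.21) at 4 years. Gated leukocytes (at least 2 UMIs of PTPRC and CD3D, none of the other excluded genes) should lack INHA. They had it in 4.32% (2.44–7.03) of 347 cells in the cattle-yak and in 0 of 182 cells at 4 years, which by a floor of 3 counts allows a share of up to 1.65% (exact upper limit 2.01%). Median depth was 1258 UMIs for the cattle-yak cells free of the 9 genes and 1702 for its leukocytes, against 1218 and 1684 at 4 years. After each cell was thinned to 500 UMIs, the shares in the cattle-yak were 6.79% (5.51–8.27) of cells free of the 9 genes and 0.865% (0.179–2.51) of leukocytes. At 4 years the thinned share was 1.73% (1.25–2.33) of cells free of the 9 genes and 0 of the 182 leukocytes. The intervals for leukocytes and for cells free of the 9 genes did not overlap in the cattle-yak, but did overlap at 4 years. Before thinning, some other gates stood above the cells free of the 9 genes. These were stroma (5.26% of 76) and pericyte (4.55% of 22) at 4 years, and spermatogonium (11.4% of 35) and spermatocyte (16.7% of 6) in the cattle-yak. After thinning only stroma at 4 years did, at 2.63% (0.320–9.18), and every cattle-yak gate was at 1.11% or less. In the younger libraries INHA was spread over other classes too, in 81.9% and 78.2% of thinned spermatogonium-gated cells at 6 months.

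**Figure D1:**
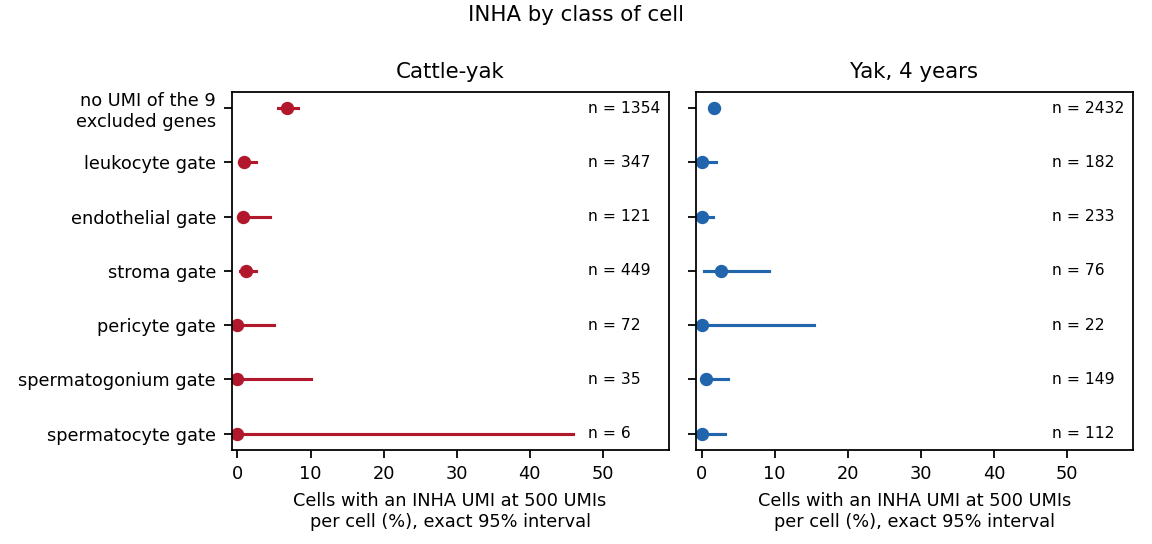
Share of cells with an INHA UMI (%, x axis) after thinning each cell to 500 UMIs, by class of cell (rows), in the cattle-yak (left) and the yak of 4 years (right). Points are shares, bars exact 95% intervals and n the cells of a class. Cells free of the 9 excluded genes stand at 6.79% in the cattle-yak and 1.73% at 4 years, and the leukocyte gate at 0.865% in the cattle-yak and 0% at 4 years.

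Some Sertoli markers were present in these cells, but several defining ones were sparse. CST3 had 6233 CPM (the gene's UMIs scaled to the total UMIs of the summed cells, interval 5933–6545) in cattle-yak INHA-bearing cells, against 2548 CPM in the INHA-negative cells that passed the other terms of the rule. At 4 years it had 2262 CPM (2031–2512) in INHA-bearing cells and 624 CPM in INHA-negative cells. At 500 UMIs CST3 was seen in 81.2% of INHA-bearing and 45.2% of INHA-negative cattle-yak cells, and in 26.8% of the leukocyte gate. GATA4, a transcription factor of gonadal somatic cells, had 22 UMIs and 85.0 CPM (53.3–129) in cattle-yak INHA-bearing cells, against 8.02 CPM in INHA-negative ones. At 4 years GATA4 had 3 UMIs and 19.4 CPM (4.01–56.8), against 1.92 CPM. FSHR, the receptor for follicle-stimulating hormone, had 5 UMIs in 4 cattle-yak cells, or 19.3 CPM (6.27–45.1), and 0.535 CPM in INHA-negative cells. At 4 years 0 of 83 cells had an FSHR UMI, which by a floor of 3 counts allows a share of cells with a UMI of up to 3.61%.

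SOX9 lay in few of the cells. It had 162 CPM (117–219) in cattle-yak INHA-bearing cells and 34.8 CPM in INHA-negative ones, and at 4 years 71.3 CPM (35.6–128) against 36.8 CPM. It was seen in 9.40% of the cattle-yak cells and 8.43% of the cells of 4 years. In the cattle-yak 28 of the 42 SOX9 UMIs lay in 3 cells, and 1 cell held 22 of them. After thinning, SOX9 was in 2.68% of INHA-bearing and 1.66% of INHA-negative cattle-yak cells, and in 4.82% against 1.45% at 4 years. WT1, which Sertoli cells keep from the fetal gonad onwards, was no higher in the INHA-bearing cells. It had 19.3 CPM in them and 38.5 CPM in INHA-negative cells of the cattle-yak, and 13.0 CPM against 33.1 CPM at 4 years. DHH, the hedgehog ligand of Sertoli cells, had 0 UMIs in both libraries. AMH, CLU and CLDN11 carry no symbol in the files and were not analysed here. At least 2 of the 7 Sertoli markers other than INHA and CST3 were found in 16.8% (11.2–23.8) of INHA-bearing and 2.16% of INHA-negative cattle-yak cells. At 4 years the shares were 9.64% (4.25–18.1) of INHA-bearing and 0.298% of INHA-negative cells.

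Of the 12 features that set INHA-bearing cells apart most in both libraries, 8 carried only an identifier, among them the 6 highest. By the smaller of the 2 ratios, the 12 leading genes with a symbol were DEFB123, ABHD11, CRYAB, CITED1, TIMP2, TNNI3, BLVRA, MAGEA10, AARD, CLEC12B, ASB9 and APOA1. Of these 12, CITED1, a transcriptional co-regulator, was on the Sertoli marker list and also on a list of the immature Sertoli state. The 4 measured genes of the latter list summed to 556 CPM in INHA-bearing and 141 CPM in INHA-negative cattle-yak cells. At 4 years the sum was 259 CPM against 51.3 CPM. CITED1 made up 475 CPM of the 556 and 194 CPM of the 259. In younger INHA-bearing cells the sum ranged from 86.2 CPM (6 months, replicate 2) to 347 CPM (18 months, replicate 4). Whether the mature cells were in an immature state was not tested. DEFB123 encodes a beta-defensin, a family of secreted antimicrobial peptides. It had 1503 CPM (1357–1660) in cattle-yak INHA-bearing cells and 117 CPM in INHA-negative ones, and 525 CPM (417–653) against 35.9 CPM at 4 years. CITED1 had 475 CPM (395–567) and 40.1 CPM in the cattle-yak, in 40.9% of INHA-bearing and 4.90% of INHA-negative cells. At 4 years CITED1 had 194 CPM (131–278) and 4.28 CPM, in 24.1% of INHA-bearing and 0.681% of INHA-negative cells.

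TIMP2, an inhibitor of matrix metalloproteinases, had 3014 CPM in INHA-bearing and 352 CPM in INHA-negative cells of the cattle-yak, and 1899 CPM against 402 CPM at 4 years. APOA1, the main protein of high-density lipoprotein, had 2137 CPM against 687 CPM in the cattle-yak and 1510 CPM against 102 CPM at 4 years. CRYAB, a small heat shock protein, had 1368 CPM against 237 CPM in the cattle-yak and 531 CPM against 70.4 CPM at 4 years. TNNI3, known as the inhibitory troponin of heart muscle, had 1264 CPM against 126 CPM in the cattle-yak and 259 CPM against 25.9 CPM at 4 years. MAGEA10, of a family of cancer-testis antigens, had 259 CPM against 18.2 CPM in the cattle-yak and 130 CPM against 2.14 CPM at 4 years. CLEC12B, a C-type lectin receptor, had 255 CPM against 42.8 CPM in the cattle-yak and 136 CPM against 3.21 CPM at 4 years. All 12 were thus higher in INHA-bearing cells of both libraries, as the choice by the smaller ratio requires.

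Several leading genes were rare in leukocytes. At 500 UMIs DEFB123 was in 47.0% of INHA-bearing cells, 6.64% of INHA-negative cells and 2.31% of the leukocyte gate in the cattle-yak. At 4 years it was in 32.5% of thinned INHA-bearing cells, 1.75% of INHA-negative cells and 3.30% of the leukocyte gate. CITED1 was in 18.8% of thinned INHA-bearing and in 0 of 347 thinned leukocytes of the cattle-yak, and in 18.1% against 1.10% at 4 years. MAGEA10 and CLEC12B were in 0 thinned leukocytes of either library. The highest thinned shares in leukocytes were 5.76% for APOA1 in the cattle-yak and 7.14% for TIMP2 at 4 years.

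**Figure D2:**
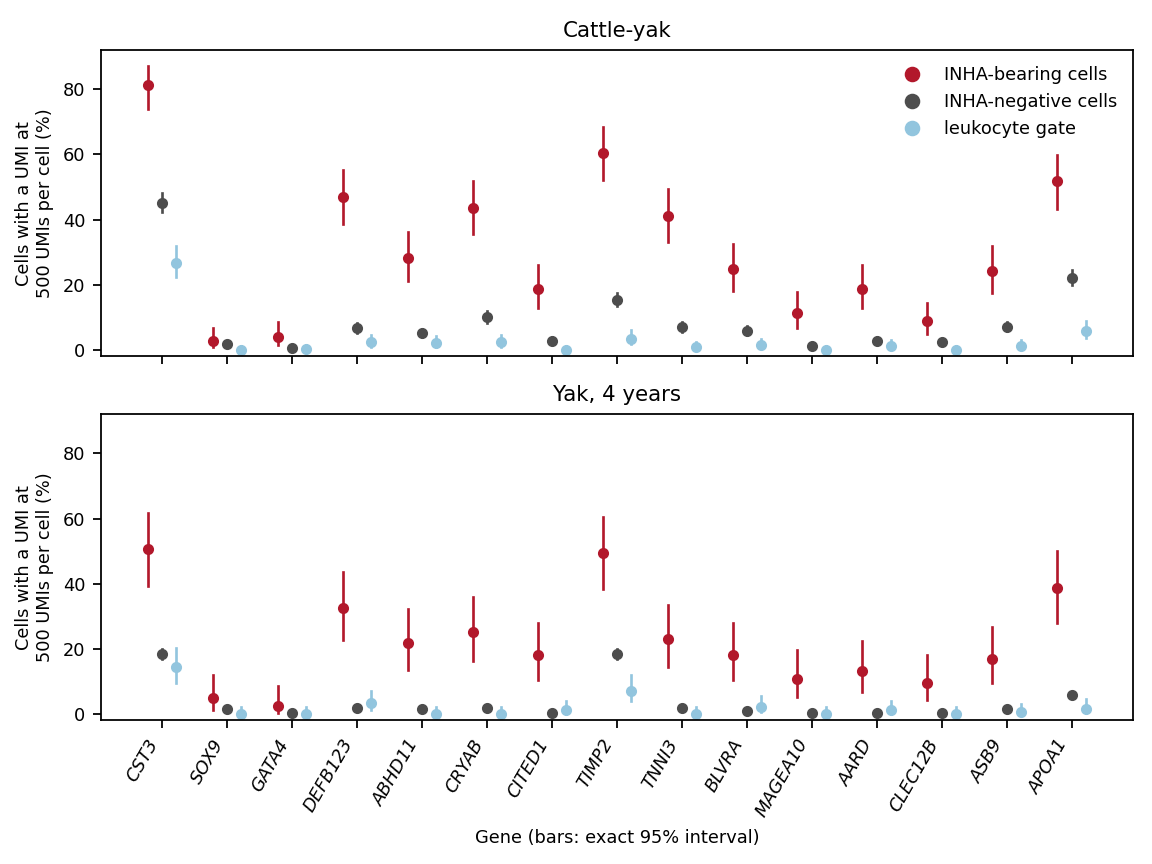
Share of cells with a UMI (%, y axis) at 500 UMIs per cell for 3 Sertoli markers and the 12 leading genes (x axis), in the cattle-yak (top) and the yak of 4 years (bottom). Red points are INHA-bearing cells, grey INHA-negative cells and light blue the leukocyte gate, with exact 95% intervals. DEFB123 stands at 47.0% in red against 6.64% in grey in the cattle-yak, whereas SOX9 stands at 2.68% against 1.66%.

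By the number of INHA UMIs, which the rule used, DEFB123 and CITED1 were higher in cells with more, as a description only, since both were chosen for being higher with INHA. In cattle-yak cells with 1, 2 and 3 or more INHA UMIs, DEFB123 had 890 CPM, 963 CPM and 2364 CPM, and CITED1 had 265 CPM, 460 CPM and 693 CPM. At 4 years DEFB123 had 346 CPM, 805 CPM and 1885 CPM in the same classes, and CITED1 had 115 CPM, 328 CPM and 754 CPM. The class with 1 INHA UMI at 4 years held 14 of 15 cells rich in spermatid RNA, described next, which held 2 UMIs of DEFB123 and 0 of CITED1 among the 15. SOX9 had 37.9 CPM, 460 CPM and 152 CPM in the cattle-yak and 62.1 CPM, 119 CPM and 0 CPM at 4 years. No order can be read from these SOX9 values. The 460 CPM came from 1 cell with 22 SOX9 UMIs, and the 0 CPM from only 6 shallow cells. The share of INHA among cells that carried at least 2 UMIs of CITED1 and DEFB123 together was 58.5% (51.1–65.6) of 188 cells in the cattle-yak. It was 34.5% (24.6–45.4) of 87 cells at 4 years, so many cells with these genes had no INHA UMI. Just outside the rule, cattle-yak cells with INHA and 1 UMI of an excluded gene had 573 CPM of DEFB123, and those with 3 or more had 104 CPM. The 45 cattle-yak cells left out for 20 to 40% mitochondrial UMIs had 1921 CPM of DEFB123, and the 21 such cells at 4 years had 1258 CPM.

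At 4 years the INHA-bearing cells held another set of cells, which carried spermatid RNA. Of the 83 cells, 15 (18.1%) had 3 or more UMIs of the 6 measured spermatid genes, and they held 52.8% of all UMIs of the group. Their median depth was 3457 UMIs, against 960 for the other 68 cells. Of the 15, 14 had exactly 1 INHA UMI. They held 1 of the 349 CST3 UMIs, 2 of the 81 DEFB123 UMIs, and none of the 30 CITED1 or 3 GATA4 UMIs. They did hold 5 of the 11 SOX9 UMIs. CRISP2, a protein of the sperm acrosome and tail, had 1840 CPM in these 15 cells and 234 CPM in the other 68. INHA was found in 2.12% of all cells free of the 9 excluded genes that had 3 or more spermatid UMIs, and in 3.94% of those with fewer. At 500 UMIs these shares were 0.424% (0.0876–1.24) and 2.26% (1.61–3.08). This split was chosen after the values were seen. Without the 15 cells, levels at 4 years were 4782 CPM of CST3, 1085 CPM of DEFB123, 412 CPM of CITED1, 82.4 CPM of SOX9 and 1374 CPM of INHA. In the cattle-yak 0 of 149 cells had a UMI of any of the 6 spermatid genes.

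**Figure D3:**
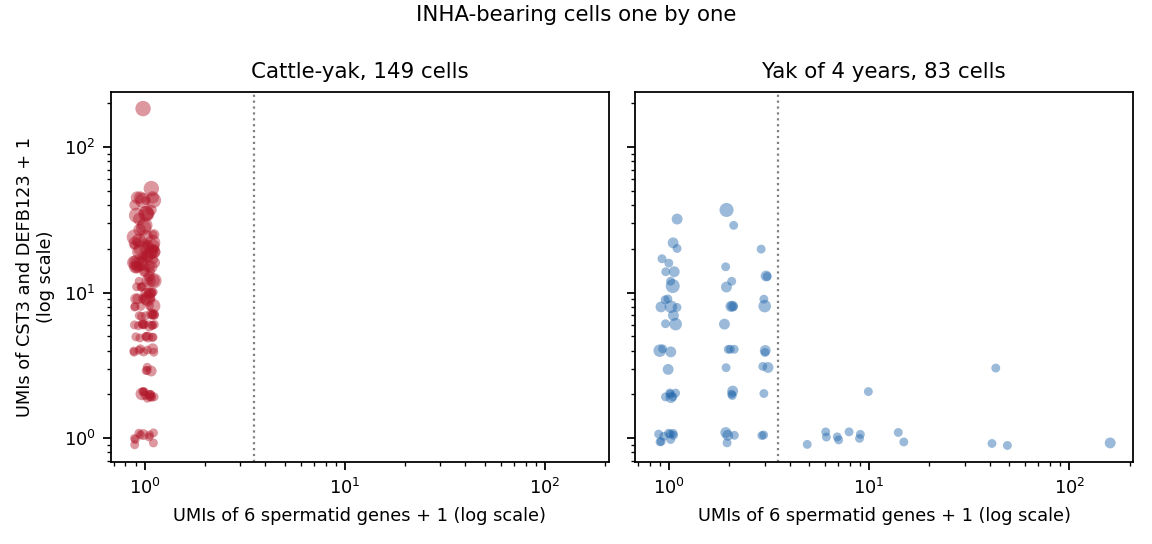
UMIs of CST3 and DEFB123 plus 1 (y axis, log scale) against UMIs of the 6 measured spermatid genes plus 1 (x axis, log scale) in each INHA-bearing cell of the cattle-yak (left, 149 cells) and the yak of 4 years (right, 83 cells), with slight jitter. Larger points have more INHA UMIs, and the dotted line sets off cells with 3 or more spermatid UMIs. To its right lie 15 cells of the yak of 4 years, which held 1 of the CST3 and 2 of the DEFB123 UMIs.

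A smaller set of cells stood apart in the cattle-yak. WFDC2, a whey-acidic-protein-domain protein of epididymal and other epithelia, had 506 UMIs in INHA-bearing cells, of which 486 lay in 9 cells with 5 or more. These 9 cells held 24 of the 42 SOX9 UMIs, or 899 CPM of SOX9, against 77.6 CPM in the other 140 cells. Of those 24 UMIs, however, 22 lay in 1 cell, which also held 303 of the WFDC2 UMIs. The 9 cells held 2 of the 389 DEFB123 UMIs, 1 of the 123 CITED1 UMIs and none of the 67 MAGEA10 UMIs. Their INHA level was 487 CPM, against 1392 CPM in the other 140 cells. This split, too, was chosen after the values were seen.

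By summed level, endothelial and mural markers were lower in INHA-bearing than in INHA-negative cells of both libraries. Leydig markers were higher by this measure in both libraries, and macrophage markers at 4 years. The summed level of the 5 endothelial markers was 27.1 CPM in INHA-bearing and 205 CPM in INHA-negative cattle-yak cells, and 38.9 CPM against 237 CPM at 4 years, with PECAM1 and CDH5 at 0 by the rule. The 6 mural markers summed to 885 CPM against 2199 CPM in the cattle-yak and 90.7 CPM against 737 CPM at 4 years, with RGS5 at 0 by the rule. In the cattle-yak, however, more INHA-bearing cells had a mural UMI, 48.3% against 37.1%, or 30.9% against 21.7% after thinning. At 4 years the shares were 14.5% against 16.9%, or 9.64% against 9.03% after thinning. The 5 lymphocyte markers summed to 1472 CPM against 3626 CPM in the cattle-yak and 972 CPM against 905 CPM at 4 years. CCL5, a chemokine of lymphocytes, made up 1279 CPM of that in the cattle-yak cells and 732 CPM at 4 years, and NKG7, a granule protein of cytotoxic lymphocytes, 193 CPM in the cattle-yak and 240 CPM at 4 years. Leukocytes had 7026 CPM of CCL5 in the cattle-yak and 6939 CPM at 4 years. The 6 macrophage markers summed to 65.7 CPM against 73.3 CPM in the cattle-yak and 376 CPM against 173 CPM at 4 years. At 4 years 1 cell held 43 of the 58 macrophage UMIs, and the sum without it was 98.7 CPM. The 2 measured markers of Leydig cells, STAR and CYP11A1, summed to 19.3 CPM against 9.09 CPM in the cattle-yak and 58.3 CPM against 7.49 CPM at 4 years. That was 5 UMIs in INHA-bearing cells of the cattle-yak and 9 in those of 4 years. Their part in the levels of the leading genes was not tested.

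Genes of Sertoli function other than these markers were sparse. Of the 8 measured genes of hormone response and inhibin, 4 had 0 UMIs in cattle-yak INHA-bearing cells and 5 at 4 years. SHBG, whose gene also gives the androgen-binding protein of Sertoli cells, had 30.9 CPM in INHA-bearing and 6.42 CPM in INHA-negative cattle-yak cells, and 25.9 CPM against 1.50 CPM at 4 years. INHBA, a beta subunit that joins INHA to make inhibin A, had 23.2 CPM against 20.9 CPM in the cattle-yak and 19.4 CPM against 5.99 CPM at 4 years. ESPN is an actin-bundling protein of the junctions between Sertoli cells and germ cells in rodents. It had 34.8 CPM against 17.1 CPM in the cattle-yak and 32.4 CPM against 13.7 CPM at 4 years. These levels rest on 8 UMIs of SHBG, 6 of INHBA and 9 of ESPN in the cattle-yak, and on 4, 3 and 5 at 4 years. The 8 measured blood-testis barrier genes, ESPN among them, went the other way as a sum. They had 166 CPM against 204 CPM in the cattle-yak and 156 CPM against 239 CPM at 4 years. GJA1, the gap junction gene connexin 43, had 0 UMIs in both. The 12 measured genes of the dissociation and stress list were lower as a sum, at 4405 CPM against 8859 CPM in the cattle-yak and 1957 CPM against 4104 CPM at 4 years. JUN, a subunit of the AP-1 transcription factor, had 1345 CPM against 3576 CPM in the cattle-yak and 395 CPM against 1050.1 CPM at 4 years.

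Genes that marked INHA-bearing cells at every younger stage marked many of the mature ones. In all 4 younger libraries 38 features were at least 2-fold higher in INHA-bearing than in INHA-negative cells (50 CPM added to each side), and 25 of them had a symbol. In the cattle-yak 20 of the 34 measured in that library were again 2-fold higher, or 58.8%, where 3.62% of all 5993 measured features were. At 4 years 12 of 32 were, or 37.5%, where 0.546% of all 9712 measured features were. The rule used this contrast in each library, so these shares are given as a description. With 50 CPM added, a feature under 50 CPM in INHA-bearing cells cannot reach 2-fold. The 38 features had passed that bar in the younger libraries, whereas all measured features were not matched to them for level. The shares are therefore not for genes of like level. TIMP2 was among them, with INHA-bearing cells of the 6-month yaks at 20408 and 18574 CPM and those of the 18-month yaks at 5434 and 9156 CPM. CHGA, which encodes chromogranin A, and TFF2, a secreted trefoil peptide, marked the younger cells but had 0 UMIs in INHA-bearing cells of both mature libraries.

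Most genes that differed by size between cattle-yak and 4-year cells lay in the spermatid-bearing cells of 4 years. Of 1868 genes with at least 20 UMIs in the higher library, 18 (0.964%) were at least 4-fold higher and 375 (20.1%) at least 4-fold lower in the cattle-yak, with 50 CPM added to each side and no test. For 373 of the 375 lower genes, over 50% of the 4-year UMIs lay in the 15 cells with spermatid RNA, which held 52.8% of all 4-year UMIs. The same was true of 1022 (54.7%) of the 1868 genes compared. DKKL1, a secreted protein of spermatids, had 15.5 CPM in the cattle-yak and 5133 CPM at 4 years, with 87.8% of the 4-year UMIs in those 15 cells. TSACC had 19.3 CPM in the cattle-yak and 3604 CPM at 4 years, and IZUMO4 had 3.86 CPM in the cattle-yak and 2171 CPM at 4 years. CRISP2, ADAD1 and BTBD17 had 0 UMIs in the cattle-yak and were at least 93.4-fold, 104-fold and 117-fold lower against a floor of 3 UMIs. TUBA3D, YPEL1, CLGN and MARCHF6 completed the 10 lowest with a symbol. All 5 spermatid markers with 20 UMIs or more were past 4-fold lower.

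Without the 15 cells, 1068 genes were compared, of which 8 (0.749%) were higher and 38 (3.56%) lower by 4-fold in the cattle-yak. All 8 of the higher and 35 of the lower were also past 4-fold over all cells. DKKL1 was still 1333 CPM in the 68 remaining cells of 4 years, against 15.5 CPM in the cattle-yak, and it was in 51 of the 68. Leukocytes of the yak of 4 years had DKKL1 in 66.5% of cells at 1022 CPM, and those of the cattle-yak in 0.865% of cells. WFDC2, OXT and MYL6B were past 4-fold higher both with and without the 15 cells. WFDC2 had 1955 CPM in the cattle-yak and 6.48 CPM (1 UMI) at 4 years, but 86.2 CPM in the cattle-yak without the 9 cells with 5 or more UMIs, a ratio of 2.41 that does not pass 4-fold. INHA-negative cells, too, had 1309 CPM of WFDC2 in the cattle-yak and 19.3 CPM at 4 years without spermatid-bearing cells. OXT, which encodes the hormone oxytocin, had 67 UMIs in 39 cattle-yak cells, or 259 CPM (24.6 CPM in INHA-negative cells), and 0 UMIs at 4 years. That made it at least 13.3-fold higher against a floor of 3 UMIs, or at least 6.28-fold against the same floor in the 68 cells. MYL6B, a myosin light chain, had 483 CPM in the cattle-yak and 32.4 CPM at 4 years, and 68.7 CPM at 4 years without the 15 cells. HEBP2, LTBP4, TAGLN, FOS and TNNI3 were past 4-fold only with all cells, with ratios of 3.75, 3.54, 3.84, 2.78 and 2.30 without the 15. TAGLN and FOS turned lower in the cattle-yak when every cell was thinned to 500 UMIs, with ratios of 0.812 and 0.952. Of the 8 measured Sertoli markers other than INHA, 5 had 20 UMIs or more and 0 of them passed 4-fold in either direction. Their median ratio was 1.94, where that of all genes compared was 0.923. Without the 15 cells the median ratio of the 5 was 1.30, and that of all genes compared was 1.24. The feature ENSBGRG00000025999, which has no symbol, had 263 CPM in the cattle-yak cells and 26999 CPM in the 68 cells of 4 years, where all 1965 of its UMIs lay in 12 cells.

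Between stages, 2 mature libraries were compared with 2 adolescent and 2 prepubertal ones on summed INHA-bearing cells. The mature stage joins a hybrid of unstated age and a yak of 4 years, so their difference is part of the spread behind the p-values, and age and hybrid status cannot be told apart in it. The test was edgeR's quasi-likelihood test with Benjamini-Hochberg adjustment over 6758 genes. Against 18 months, 5 genes (0.074%) were higher and 0 lower in the mature cells at an adjusted p below 0.05, whereas 1236 had an unadjusted p below 0.05 and DESeq2 called 313. Without 18-month replicate 3 or 4 the count was 0, without the cattle-yak 1067, without the yak of 4 years 11, and without 6-month replicate 1 or 2 it was 125 or 134. The 2 with a symbol were CLEC12B and MAGEA10, both among the 12 leading genes. CLEC12B had 255 CPM in the cattle-yak and 136 CPM at 4 years, against 2.04 and 1.98 CPM at 18 months and 0 UMIs at 6 months. Its log2 fold change over 18 months was 6.46 ± 0.87 (SE, edgeR adjusted p = 0.0358). MAGEA10 had 259 CPM in the cattle-yak and 130 CPM at 4 years, against 2.04 and 3.47 CPM at 18 months, a log2 fold change of 5.86 ± 0.86 (edgeR adjusted p = 0.0358). Both genes were higher in each mature library than in any younger one, and both lost the call without 18-month replicate 3 (adjusted p = 0.594) or 4 (adjusted p = 0.433). ENSBGRG00000015690, without a symbol, had 2168 CPM in the cattle-yak, 810 CPM at 4 years and 0 UMIs in all 4 younger libraries (adjusted p = 0.0330).

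Against 6 months, 63 genes (0.932%) rose and 51 (0.755%) fell in the mature cells. INHA, which the rule used to choose the cells, is among the 51. The count of 114 was 0 when any 1 of the 4 younger libraries was left out, 60 without the yak of 4 years and 1380 without the cattle-yak. TMM scaling shifted the stages by 1.08 on the log2 scale, and with library totals alone the split was 445 higher and 36 lower. CLEC12B was at least 709-fold higher against a floor of 3 UMIs over the 2 libraries of 6 months, which had none (edgeR adjusted p = 0.00446). MAGEA10 rose by 7.73 ± 0.92 on the log2 scale (adjusted p = 0.00446). DEFB123 rose by 6.22 ± 1.10 (adjusted p = 0.0239), with 9.51 and 3.32 CPM in 6-month yaks and 14.3 and 51.0 CPM in 18-month yaks. Over 18 months its log2 fold change was 4.77 ± 1.03 and did not pass (adjusted p = 0.122). These 3 genes were named for being high in mature INHA-bearing cells, so their rank among the calls is not independent of that choice. ESPN rose by 4.89 ± 0.92 (adjusted p = 0.0318), on 14 UMIs in mature cells and 5 at 6 months. MRO, DLK2 (a transmembrane protein of the delta-like family), VSIG1, SLC30A3, RAB11FIP4 and ANKRD9 also rose, each with 31 or fewer UMIs in the mature cells. RAB11FIP4 had 97.2 CPM at 4 years and 11.6 CPM in the cattle-yak, and ANKRD9 had 143 CPM and 34.8 CPM, so both leaned on 4 years. TUBA3D and CPT1B rose as well, but their mature level, too, came mostly from 1 library. TUBA3D had 3.86 CPM in the cattle-yak and 2042 CPM at 4 years, where 85.4% of its UMIs lay in the spermatid-bearing cells.

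Several genes of the prepubertal cells were undetected or low in the mature ones. CHGA had 0 UMIs in the mature cells and 733 and 402 CPM at 6 months, at least 80.5-fold lower against a floor of 3 UMIs (edgeR adjusted p = 0.00545). TFF2 was at least 38.2-fold lower, with 0 UMIs against 298 and 252 CPM (adjusted p = 0.00626). The other 8 lowest, PYCR1, PPIC, AIF1L, SOD3, TLE6, TINAGL1, SPOCK2 and ARHGAP22, also had 0 UMIs in the mature cells and were at least 2.54-fold to 7.28-fold lower. At 18 months CHGA had 221 and 171 CPM and TFF2 had 98.0 and 114 CPM, and neither was among the calls against that stage. TIMP2 fell by 4.05 on the log2 scale (SE 0.83, adjusted p = 0.0430) and APOA1 fell by 3.68 (SE 0.82, adjusted p = 0.0489), although both still set INHA-bearing cells apart in the mature libraries. At 4 years TIMP2 had 1899 CPM and APOA1 1510 CPM, or 3476 and 3146 CPM without the 15 cells rich in spermatid RNA. Those levels were still below those of 6 months, at 20408 and 18574 CPM of TIMP2 and 11744 and 10579 CPM of APOA1. INHBA fell by 3.48 (SE 0.73, adjusted p = 0.0430), with 23.2 CPM in the cattle-yak and 19.4 CPM at 4 years, against 125 and 104 CPM at 6 months. STRA6, the receptor for retinol-binding protein, had 1 UMI in the mature cells. Its edgeR log2 fold change against 6 months was -5.25 ± 1.17 (adjusted p = 0.0489). Its ratio of pooled CPM was 0.0509 (0.00129–0.285), with an interval for counting error only.

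No call was a Sertoli marker other than INHA, which the rule used. INHA was lower against 6 months (log2 fold change -3.95 ± 0.83, edgeR adjusted p = 0.0430), but it chose the cells and is not a finding. Of the 7 tested Sertoli markers other than INHA, 0 rose and 0 fell against either stage, at a median log2 fold change of -1.07 against 18 months and -0.51 against 6 months. Of all 6758 genes, 0.074% rose and 0% fell against 18 months, and 0.932% rose and 0.755% fell against 6 months, so counts of 0 in lists this short are near the background. The medians over all genes tested were 0.0031 against 18 months and 0.08 against 6 months. The TMM shift of 1.08 against 6 months was larger than the Sertoli median there, so signs depended on scaling. GATA4, SOX9 and WT1 were lower by edgeR, but had ratios of pooled CPM of 1.58 (1.01–2.37), 1.52 (1.13–2.01) and 1.57 (0.616–3.34). Of the 53 SOX9 UMIs in mature cells, 22 lay in 1 cattle-yak cell, so the pooled SOX9 ratio leaned on that cell. By both edgeR and pooled CPM, TF and CITED1 were higher and CST3 and FSHR lower. For TF the edgeR log2 fold change was only 0.19 ± 0.87. Of its 23 UMIs in the cattle-yak, 17 lay in the 9 cells with 5 or more WFDC2 UMIs. SOX9 had 162 CPM in the cattle-yak and 71.3 CPM at 4 years, against 541 and 354 CPM in 18-month yaks and 108 and 55.1 CPM in 6-month yaks. It was lower in both mature libraries than at 18 months, without passing (log2 fold change -1.88 ± 0.73, adjusted p = 0.215). CST3 had 6233 CPM in the cattle-yak and 2262 CPM at 4 years, against 2526 and 13344 CPM at 18 months, so the groups overlapped. The levels at 4 years in this comparison include the 15 cells rich in spermatid RNA. Without them they were 4782 CPM of CST3, 412 CPM of CITED1 and 82.4 CPM of SOX9. CITED1 was higher in both mature libraries than in every younger one, at 475 CPM in the cattle-yak and 194 CPM at 4 years, against 42.9 and 174 CPM in 18-month yaks and 58.3 and 38.9 CPM in 6-month yaks. Its log2 fold change was 1.46 ± 0.85 against 18 months (adjusted p = 0.380) and 1.74 ± 0.85 against 6 months (adjusted p = 0.280), and neither passed. Of the 7 tested blood-testis barrier genes 1, ESPN, rose against 6 months, where 0.932% of all genes rose. Of the 4 tested hormone-response genes 1, INHBA, fell, and of the 5 tested retinoid genes 1, STRA6, fell, where 0.755% of all genes fell. None of these passed against 18 months. The 12 stress genes had a median log2 fold change of -2.70 against 18 months and -1.04 against 6 months, and 0 of 12 passed in either comparison. The -1.04, too, was smaller in size than the TMM shift of 1.08. Simulated counts for the comparison with 18 months recovered 9.15% of 4-fold and 59.3% of 16-fold changes, so smaller changes were mostly not detectable. In such sums, fewer cells of a type and less RNA per cell cannot be told apart.

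**Figure D4:**
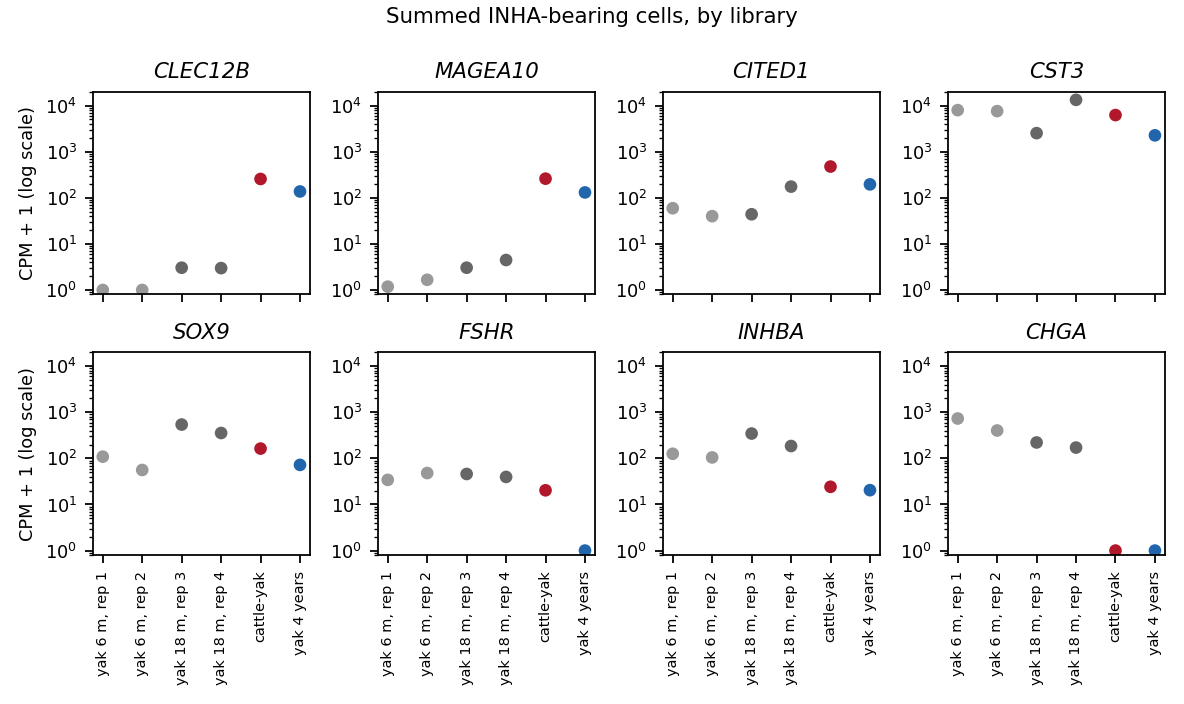
CPM plus 1 (y axis, log scale) of 8 genes in the summed INHA-bearing cells of each of the 6 libraries (x axis), with yaks of 6 and 18 months in grey, the cattle-yak in red and the yak of 4 years in blue. Each point is 1 library. CLEC12B and MAGEA10 stand at 130 CPM or more in both mature libraries and at 3.47 CPM or less in the younger ones, and CHGA at 0 UMIs in both mature libraries.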

How the data were processed

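The deposited matrices hold raw UMI counts per feature and barcode, made by the authors with Cell Ranger. Its version is 5.0.0 in the matrices, per the file headers, but the submitters' processing notes name 2.1.1. Neither source names a genome build. Of 26961 features 15722 carried a symbol, and 0 identifiers matched the reference table. Depth was 9575446 to 24762829 UMIs per library, with no barcode under 500 UMIs. Members and gene lists were chosen with earlier results of these data known. Counts of INHA-bearing cells were summed per library and given as CPM with exact Poisson intervals, and shares with Clopper-Pearson intervals. Cells were thinned to 500 UMIs with a fixed seed. Stages were tested with edgeR 4.0.16 (R 4.3.3; quasi-likelihood, TMM, filterByExpr) in 1 fit of 6 libraries, and DESeq2 1.42.0 was an alternative. The edgeR step was tested on simulated data, and 2.03% of its calls were false. Genes could be named from the lists, from the 10 highest and 10 lowest stage calls with a symbol and no overlap between libraries, from the 10 highest and 10 lowest genes with a symbol past 4-fold, and from the 12 leading genes. Doublets were not removed in the results given. Scrublet (scanpy 1.11.5) marked 0 barcodes in both mature libraries, 1 and 0 at 18 months and 269 and 181 at 6 months, and removal by rank in every library was an alternative. Other settings are given in the closing section.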

Additional observations from a re-analysis of the deposited data

How the results depend on the processing

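The share of INHA-bearing cells was 3.91% of filtered cells in the cattle-yak and 1.73% at 4 years. It was 1.83% and 0.521% with at least 2 INHA UMIs, 2.78% and 1.04% after thinning to 500 UMIs, and 1.28% at 4 years with at least 500 genes. The leukocyte share in the cattle-yak was 0.865% after thinning. SOX9 in the cattle-yak was 248 CPM with at least 2 INHA UMIs and 56.6 CPM after thinning. Of 24 values of CST3 and CITED1 under alternatives, 11 moved by less than their counting error and 13 by more.

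Genes past 4-fold between cattle-yak and 4 years numbered 393, and 154 with at least 2 INHA UMIs, 23 after thinning, 667 with 10 CPM added and 46 without cells with 3 or more spermatid UMIs, a setting chosen after seeing the data. TAGLN and FOS reversed after thinning, to ratios of 0.812 and 0.952. Of 145 values of named genes, 128 kept their direction and side. WFDC2 without 9 cattle-yak cells, also chosen after seeing the data, had a ratio of 2.41.

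The 5 genes called against 18 months became 313 with DESeq2, 936 without a filter, 1 without TMM, 34 with 4 groups, 90 with only the 2 stages, 136 with at least 2 INHA UMIs, 22 with up to 40% mitochondrial UMIs, 53 after thinning, 9 without doublets and 116 without spermatid-bearing cells. Leaving out 1 library gave 0 to 1067: 0 without either 18-month library, 125 and 134 without 6-month replicate 1 or 2, 11 without 4 years and 1067 without the cattle-yak. CLEC12B and MAGEA10 kept their direction in all 16 alternatives each and passed in 13, with adjusted p up to 0.594.

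The 114 genes called against 6 months became 611 with DESeq2, 1271 without a filter, 481 without TMM, 484 with 4 groups, 0 with only the 2 stages, 430 with at least 2 INHA UMIs, 201 after thinning and 359 without spermatid-bearing cells. Leaving out 1 library gave 0 to 1380: 0 without any 1 of the 4 younger libraries, 60 without 4 years and 1380 without the cattle-yak. Where 1 library of a stage was left, it was assumed to vary like the others. Of 302 values of the 20 named genes, 186 kept their side and 116 lost the call in the same direction. The causes were not tested. No paired analysis was possible because the groups compared share fewer than 2 replicate numbers.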
